A study of Mus musculus with 31 samples.

Results

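RNA bound to ribosomes was compared between the central axons and the cell bodies (somas) of mouse sensory neurons, in 8 libraries of 1 batch. The members were taken by their labels, as the 4 central axon and the 4 soma libraries of batch 1 that carry Nav1.8-Cre and the L10a-eGFP-fl/fl allele, out of 31 libraries in the series. The central axon tissue was labelled as lumbar dorsal root with spinal cord, and the soma tissue as lumbar dorsal root ganglia (DRG), the clusters of sensory neuron bodies beside the cord. Control libraries came from L10a-eGFP-fl/fl mice without Cre, which carry the same tag allele, and 4 of them from the central axon tissue are set beside the results. Ages, sexes and pooling of animals are not given in the sources used here.

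In translating ribosome affinity purification (TRAP), a ribosomal protein carries a green fluorescent tag in 1 cell type, so that its ribosomes can be pulled out of a mixed tissue together with the RNA they hold. Here the tagged protein was L10a, and Cre was driven from the gene of Nav1.8 (Scn10a), a sodium channel of pain-sensing neurons (nociceptors), so that cells of that lineage carry the tag. The cell body of a nociceptor lies in the ganglion, while its central axon runs through the dorsal root into the dorsal horn of the spinal cord. There it meets local inhibitory neurons, which use GABA and glycine, excitatory neurons, which use glutamate, and glia. The labels thus put spinal cord in the axon tissue and not in the soma tissue.

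Central axon libraries held 10.4 to 11.1 M counts (M, mega) with 15035 to 15952 genes at 10 or more counts, and soma libraries 7.56 to 11.6 M with 12502 to 14015 genes. Central axon controls held 7.82 to 12.4 M counts with 7251 to 15153 genes, a wider range than either Cre group. A gene with 3 counts, taken as the floor of detection, stood at 0.259 to 0.397 CPM (counts scaled to the total of their library) in the Cre libraries, counting error only. None of 24 replicate pairs was a copy, with a chi-square of at least 22.5 per degree of freedom. The labels call replicates biological but do not tie them to animals, so p-values measure the spread between these libraries. Scn10a (ENSMUSG00000034533, chromosome 9, 119608456 to 119719322, GRCm38) was at 410.0, 88.3, 104 and 34.9 normalised CPM in the 4 central axon libraries and 381, 507, 463 and 547 in the 4 soma libraries. It was detected in all 8, with central axon library 1 far above the other 3 axon libraries. In the controls of the axon tissue it was at 1.79, 0, 0 and 25.5. Rpl10a, which encodes L10a, stood at 42.5 ± 8.64 (SD, n = 4) in axon, 41.4 ± 18.3 in soma and 47.5 ± 29.5 in control libraries, and counts cannot separate tagged from endogenous transcripts.

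Most genes did not pass the test. Among those that did, members of the gene lists fell into different classes by direction. Most called genes belong to no list, and the lists were chosen with earlier results known, so the classes do not describe all called genes. Genes of spinal neurons and central glia, neurotransmitter receptors and Hox genes made up much of the higher named classes. Genes of sensory neurons, mitochondrial energy production, ribosomes and proteasomes made up the lower ones. In the edgeR quasi-likelihood test on 14480 genes, 1990 (13.7%) had a Benjamini-Hochberg adjusted p under 0.05, 1250 higher (8.63%) and 740 lower (5.11%) in central axons. Genes past that threshold are called below, and levels are CPM after trimmed-mean (TMM) scaling. The median log2 fold change over all tested genes was 0.05. All 4 axon libraries lay above all 4 soma libraries in 1941 genes (13.4%) and below them in 1261 (8.71%). The count of calls moved with the libraries: it was 822 without central axon library 4, 942 without library 2, 1049 without library 3 and 2717 without library 1, which gave 1341 higher and 1376 lower. Without soma library 1 it was 1242. With library totals alone as the scaling, 2146 genes were higher and 293 lower, and the median over all genes was 0.50.

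**Figure D1:**
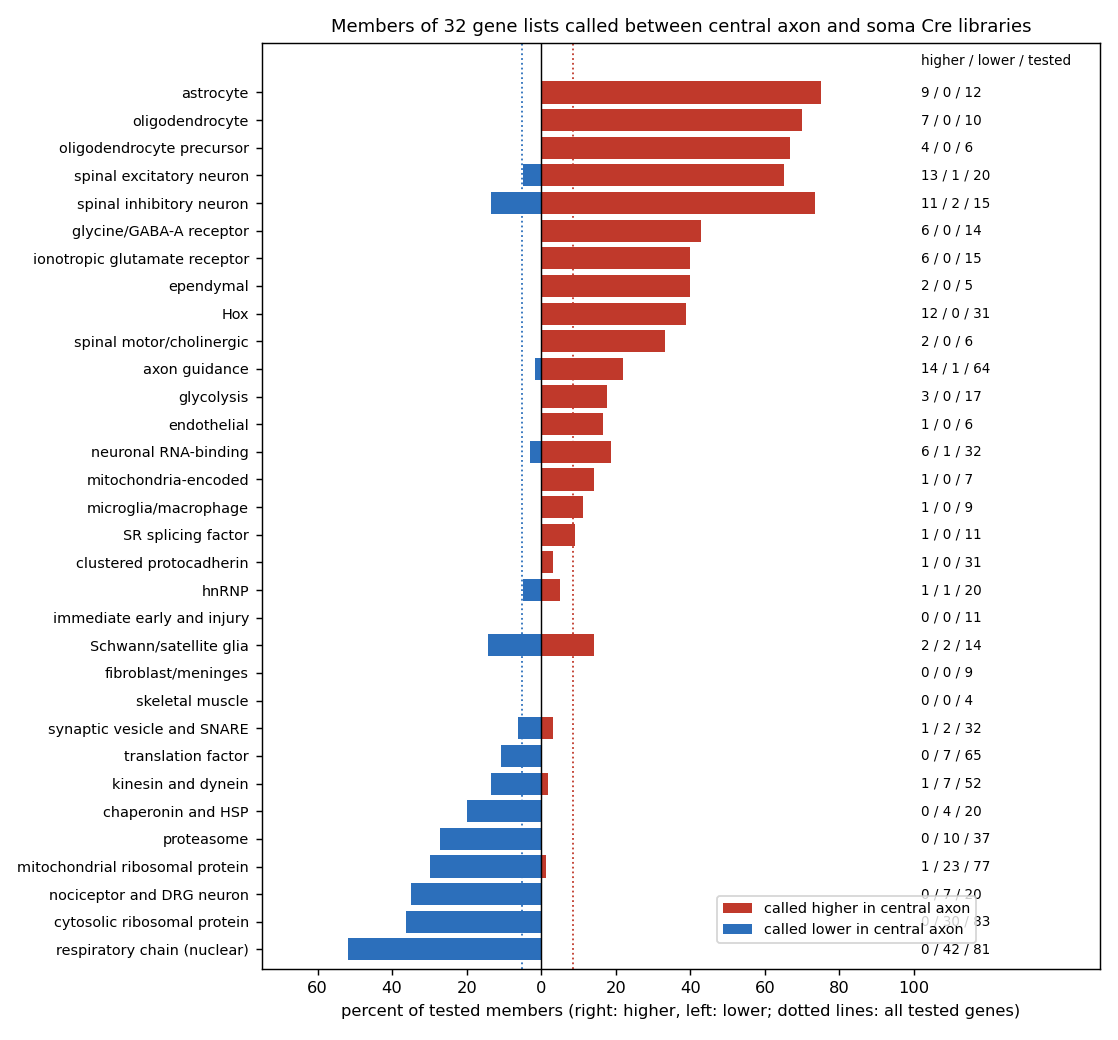
Percent of the tested members of 32 gene lists that were called higher (red, right) or lower (blue, left) in central axon than in soma Cre libraries, with the counts beside each bar. Dotted lines mark the shares over all tested genes, 8.63% higher and 5.11% lower; the astrocyte list has 9 of 12 members higher and the nuclear respiratory chain list has 42 of 81 lower.

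Transcripts of spinal cord neurons were among the higher genes. Of 15 markers of spinal inhibitory neurons, all tested, 11 rose and 2 fell, and of 24 markers of excitatory dorsal horn neurons, 20 tested, 13 rose and 1 fell. The median log2 fold changes were 6.05 and 3.52, against 0.05 over all genes. These medians hold fitted values of genes nearly absent from somas, 7 and 3 of the 2 lists, which depend on the prior count. Summed over each list, the level was 413 to 600.1 normalised CPM in axon, 194 to 248 in soma and 307 to 1130.0 in control libraries for inhibitory markers, and 717 to 1101, 440.1 to 719.8 and 1222 to 1683 for excitatory ones. The inhibitory soma sum came mostly from the members that fell, and a large part of the excitatory one did. Gal and Pvalb had soma means of 137 and 53.3, beside a mean inhibitory sum of 219. Tlx3 had a soma mean of 259.6, beside a mean excitatory sum of 524. With all 4 groups of the batch in 1 fit, 2 inhibitory and 3 excitatory markers rose. For a gene nearly absent from somas a lower bound is given below in place of the fitted fold, the axon mean over the floor of 3 counts per soma library.

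Lamp5 (ENSMUSG00000027270, chromosome 2, 136052239 to 136069917), a lysosome-associated membrane protein expressed in subsets of spinal cord neurons, was at 60.8, 89.05, 68.6 and 105 normalised CPM in the 4 axon libraries and 0.252, 0, 0 and 0 in the 4 soma libraries. Every axon library was far above every soma library, and the mean was at least 221-fold higher (edgeR adjusted p 1.64e-05). The 4 central axon controls held 171, 223, 165 and 124, each above all 4 Cre axon libraries. Sst (ENSMUSG00000004366, chromosome 16, 23889573 to 23890958), which encodes the neuropeptide somatostatin, was at 112, 98.4, 106 and 201 in axon and 0.378, 0, 0 and 0.430 in soma libraries. It was at least 354-fold higher in axons (edgeR adjusted p 1.64e-05), and the controls held 276, 163, 238 and 245. The axon and control ranges of Sst overlapped, whereas the axon and soma ranges were far apart.

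Npy (ENSMUSG00000029819, chromosome 6, 49822710 to 49829507), the gene of neuropeptide Y, carried by a set of inhibitory dorsal horn neurons, had 42.1, 45.8, 38.03 and 37.1 normalised CPM in axon libraries and 0 in each soma library. It was at least 112-fold higher in axons (edgeR adjusted p 3.73e-05), and the controls held 126, 74.6, 86.99 and 62.3, all above the axon libraries. Gad2, an enzyme that makes GABA, was at 21.9, 44.98, 50.96 and 34.7 in axon libraries, 0 in each soma library and 20.1, 157, 1.94 and 32.2 in controls. The controls spread far more widely than the Cre axon libraries and enclosed them. Slc6a5, the neuronal glycine transporter, followed the same order, with 33.8 ± 18.5 (SD, n = 4) in axon, 0 in soma and 78.3 ± 71.3 in control libraries, and was at least 92.6-fold higher in axons than in somas (edgeR adjusted p 0.000195). Calb2, the calcium-binding protein calretinin, stood at 63.5 ± 25.9 in axon, 0.453 ± 0.374 in soma and 163 ± 96.4 in control libraries (log2 fold change 7.16 with SE 0.69, edgeR adjusted p 7.39e-05).

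The members of these neuron lists that fell are genes also known from sensory neurons. Pvalb, the calcium-binding protein parvalbumin, was at 6.79, 10.9, 6.35 and 7.10 normalised CPM in axon and 14.002, 49.1, 52.9 and 97.2 in soma libraries (log2 fold change -2.77 with SE 0.52, edgeR adjusted p 0.00521). Tlx3, a transcription factor of excitatory dorsal horn and of sensory neurons, was at 93.7 ± 46.6 in axon and 259.6 ± 42.6 in soma libraries (log2 fold change -1.47 with SE 0.35, edgeR adjusted p 0.0173). Gal, the neuropeptide galanin, was at 44.6 ± 42.1 and 137 ± 38.1 (log2 fold change -1.62 with SE 0.50, edgeR adjusted p 0.0486). The edgeR call of Gal was lost in 6 of the 8 fits with 1 library left out (adjusted p up to 0.133) and that of Tlx3 in 3, without central axon libraries 2, 3 and 4 in turn (0.0646, 0.0569 and 0.0507). Of the motor and cholinergic neuron list, 2 of 6 tested members rose (5 without soma library 4), Chat and Slc18a3, the genes that make and load acetylcholine. Slc18a3 was at 9.91, 7.95, 15.8 and 11.6 in axon libraries, at most 0.252 in soma libraries and 54.4, 1.51, 0 and 2.10 in controls. In these 2 genes the controls were not uniformly high: 1 control library carried nearly all of the signal, and Chat was at 0 in the other 3.

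**Figure D2:**
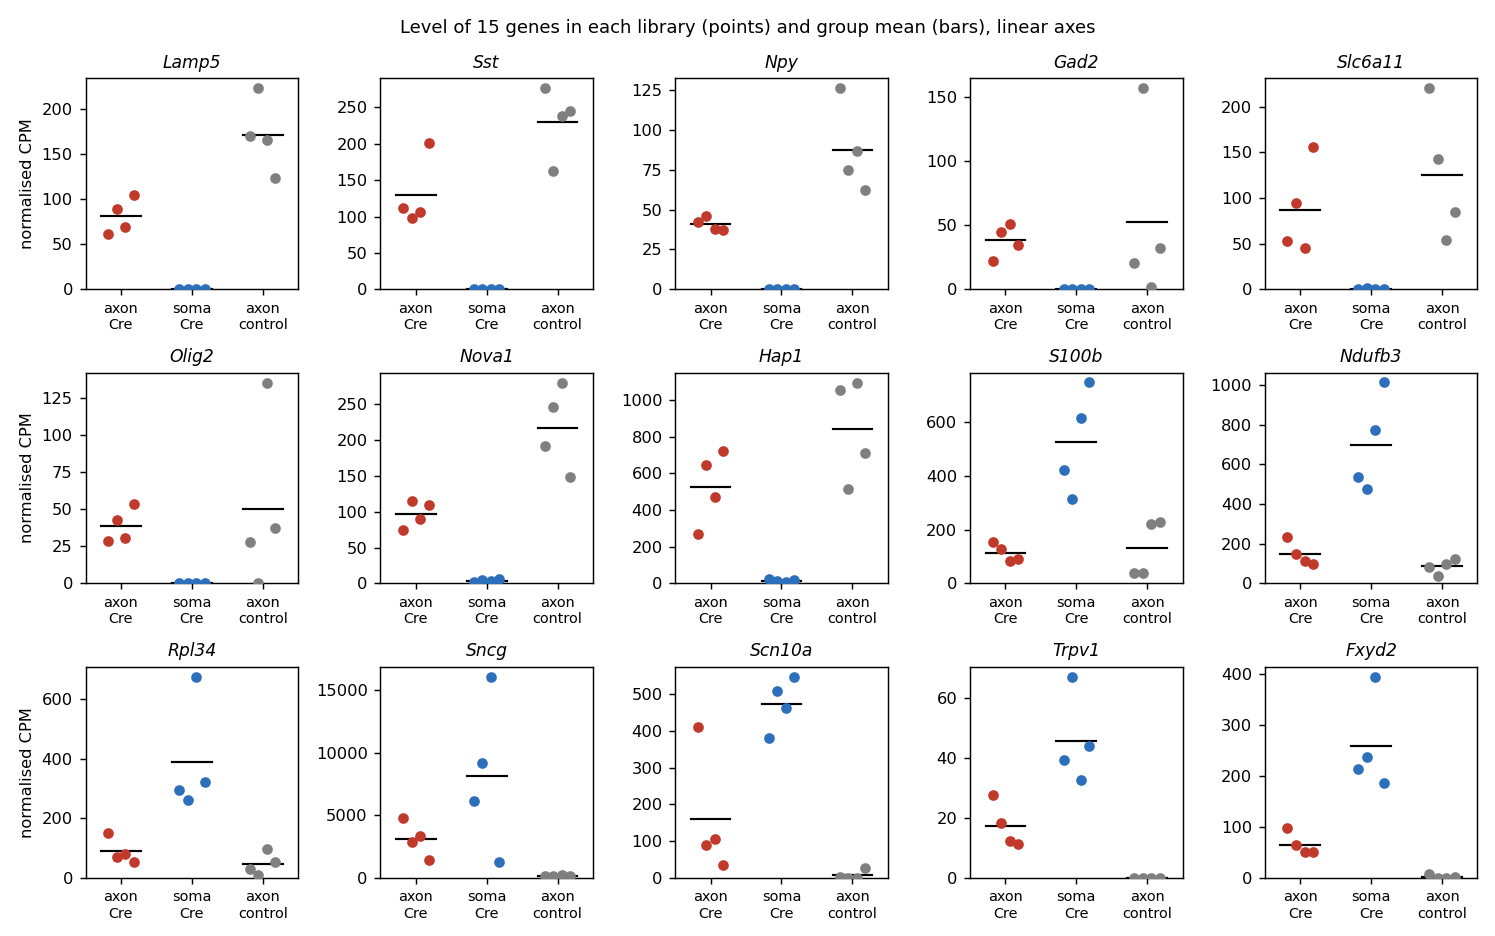
Normalised CPM of 15 genes in each library (points; red central axon Cre, blue soma Cre, grey central axon control) with group means (bars) on linear axes. Lamp5, Sst, Npy, Gad2, Slc6a11 and Olig2 were near 0 in all soma libraries and at 21.9 or above in all axon Cre libraries, while S100b, Ndufb3, Rpl34 and Fxyd2 had every soma library above every axon Cre library.

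Markers of the central nervous system's glia were higher too, and those of peripheral glia were mixed. Of 12 astrocyte markers 9 rose and none fell (median log2 fold change 5.72), and of 14 oligodendrocyte markers, 10 tested, 7 rose and none fell (3.01). Of 6 markers of oligodendrocyte precursors 4 rose. With all 4 groups of the batch in 1 fit, 1 astrocyte, 1 oligodendrocyte and no precursor marker rose. Summed over the astrocyte list, the level was 405, 1235, 1060.3 and 1445 normalised CPM in the 4 axon libraries, 22.3, 39.1, 10.2 and 60.6 in the soma libraries and 1485, 1755, 2023 and 2266 in the controls. All 4 controls exceeded all 4 axon libraries, and central axon library 1 was the lowest of the 4. Slc6a11, an astrocytic GABA transporter, was at 52.4, 94.5, 45.7 and 156 in axon and 0.757, 1.07, 0.221 and 0.430 in soma libraries (log2 fold change 7.10 with SE 0.61, edgeR adjusted p 3.73e-05), and at 220.2, 143, 54.5 and 84.5 in controls. Aldh1l1, a folate enzyme used as an astrocyte marker, was at 75.5 ± 29.8 in axon and 2.21 ± 0.957 in soma libraries (log2 fold change 5.09 with SE 0.48, edgeR adjusted p 7.39e-05).

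Oligodendrocyte RNA varied widely between axon libraries. The list's summed level was 389, 5393, 904 and 5044 normalised CPM in the 4 axon libraries, 196, 333, 131 and 711 in somas and 861, 3221, 16984 and 26811 in controls. Central axon libraries 2 and 4 were far above libraries 1 and 3, and the axon and soma ranges overlapped. Most of that sum was Mbp, the myelin basic protein, which was named after its values were seen and stood at 155, 3969, 441 and 3283 in axon libraries. Its call (log2 fold change 3.42, edgeR adjusted p 0.0329) was lost in 5 of the 8 fits with 1 library left out (adjusted p up to 0.0974). The number of oligodendrocyte markers that rose was 3 without central axon library 4, and 4 without central axon library 2, soma library 2 or soma library 3. The transcription factors of the lineage were steadier. Olig2 was at 28.5, 43.1, 30.6 and 53.7 in axon libraries, at most 0.287 in soma libraries and 27.7, 0, 136 and 37.6 in controls, at least 107-fold higher in axons than somas (edgeR adjusted p 5.96e-05). Olig1 was at 105 ± 68.2 in axon, 0.315 ± 0.631 in soma and 329 ± 192 in control libraries (log2 fold change 8.37 with SE 0.97, edgeR adjusted p 0.000269).

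Among 14 markers of Schwann cells and satellite glia, the glia of nerve and ganglion, 2 rose (Fabp7 and Drp2) and 2 fell (S100b and Scn7a). S100b (ENSMUSG00000033208, chromosome 10, 76253853 to 76261159), a calcium-binding protein of glia and of some sensory neurons, was at 154, 128, 83.6 and 92.5 normalised CPM in axon and 422, 314, 612 and 746 in soma libraries, without overlap (log2 fold change -2.19 with SE 0.36, edgeR adjusted p 0.00267). The controls were at 37.6, 40.2, 219.9 and 228, with a mean of 131 beside 115 in the Cre axon libraries. Fabp7, a fatty acid-binding protein of satellite glia and of radial glia and astrocytes, was at 437, 744, 559 and 1031 in axon and 15.1, 75.3, 22.8 and 201 in soma libraries (log2 fold change 3.14 with SE 0.69, edgeR adjusted p 0.0116) and at 982, 789.6, 2359 and 2269 in controls. Every axon library was above every soma library, with controls 3 and 4 above both groups. Scn7a, a sodium channel gene of glia and sensory neurons, fell (log2 fold change -2.51 with SE 0.73, edgeR adjusted p 0.0369), a call lost in 5 of the 8 fits with 1 library left out (adjusted p up to 0.106). The microglia list had 1 of 9 tested members higher (Sall1, a transcription factor that is not confined to microglia), the endothelial list 1 of 6 (Cldn5), the ependymal list 2 of 5 (1 without central axon library 1, 2 or 4 or soma library 2), and the fibroblast and skeletal muscle lists none of 9 and 4. In bulk samples, more cells of a type and more RNA per cell cannot be told apart.

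**Figure D3:**
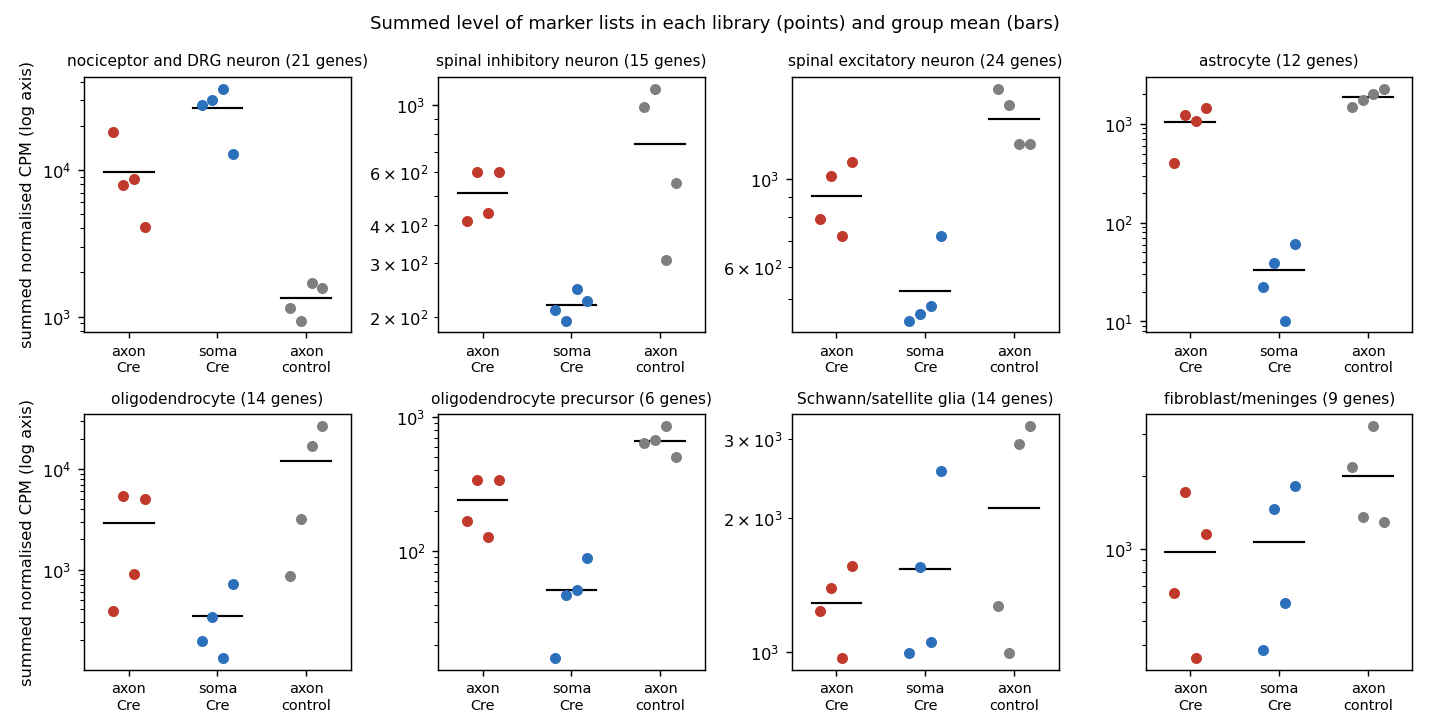
Summed normalised CPM (log axes) of 8 marker lists in each of 4 central axon Cre, 4 soma Cre and 4 central axon control libraries, with group means as bars. The nociceptor list was at 4069.6 or above in every axon Cre library and at 1683 or below in every control, whereas the astrocyte and precursor lists were higher in every control than in every axon Cre library.

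Receptors for the fast transmitters of the spinal cord rose without exception among those called. Of 18 glycine and GABA-A receptor subunit genes, 14 tested, 6 rose and none fell (median log2 fold change 1.28), and of 18 ionotropic glutamate receptor genes, 15 tested, 6 rose and none fell (2.04; 1 fell without central axon library 1). Grin2b, an NMDA receptor subunit, was at 36.9, 148, 31.2 and 66.7 normalised CPM in axon libraries and at most 0.143 in soma libraries, at least 194-fold higher (edgeR adjusted p 3.73e-05). Its controls were at 324, 149, 26.7 and 99.1, a range that enclosed the axon libraries. Gria2, an AMPA receptor subunit, was at 185, 257, 349 and 413 in axon and 14.4, 21.03, 14.6 and 40.4 in soma libraries (log2 fold change 3.74 with SE 0.43, edgeR adjusted p 0.000269) and at 292, 209, 173 and 226 in controls. The 6 GABA-A and glycine members that rose were Glra1, Glra2, Gabra3, Gabra4, Gabra5 and Gabrb1.

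Neuronal RNA-binding proteins, which guide splicing, stability and transport of neuronal messages, were mostly not called: 6 of 32 tested members rose and 1 fell. Nova1 (ENSMUSG00000021047, chromosome 12, 46694517 to 46818929), a splicing regulator, was at 74.9, 115, 90.1 and 109 normalised CPM in axon and 2.40, 4.29, 3.20 and 6.30 in soma libraries (log2 fold change 4.59 with SE 0.39, edgeR adjusted p 3.73e-05). The controls held 191, 245, 279.8 and 149, all above the axon libraries. Its paralogue Nova2 was at 55.9 ± 23.7 in axon, 8.28 ± 2.63 in soma and 96.1 ± 51.7 in control libraries (log2 fold change 2.76 with SE 0.42, edgeR adjusted p 0.00162), and 31.7% of its exon length overlaps a gene on the other strand. Celf4, Celf5, Ptbp1 and Qk also rose. The edgeR call of Qk was lost in 6 of the 8 fits with 1 library left out (adjusted p up to 0.127), that of Celf4 without central axon library 4 or soma library 2 (0.0595 and 0.0526), that of Celf5 without central axon library 2 (0.0523) and that of Ptbp1 without central axon library 4 (0.0671). In all, 3 members rose without central axon library 4, while 4 fell without library 1. With all 4 groups of the batch in 1 fit no member was called, Nova1 included (edgeR adjusted p 0.100). Elavl2, a neuronal ELAV protein, fell (log2 fold change -1.34 with SE 0.40, edgeR adjusted p 0.0408), a call lost in 5 of the 8 fits with 1 library left out (adjusted p up to 0.104). The median of this list was -0.11 and turned to 0.33 with library totals alone, where all genes shifted to 0.50.

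Hox genes, which set position along the body axis, and axon guidance genes were 2 further groups with more higher than lower calls. Of 39 Hox genes, 31 tested, 12 rose and none fell (median log2 fold change 1.41). Among them Hoxc13 was at 9.27, 14.3, 4.67 and 14.7 normalised CPM in axon libraries and 0 in each soma library, and Hoxb6 at 57.97 ± 14.03 and 12.7 ± 5.09 (log2 fold change 2.19 with SE 0.37, edgeR adjusted p 0.00316). Others such as Hoxa7 (log2 fold change -0.08, edgeR adjusted p 0.899) and Hoxc9 (-0.20, 0.711) had nearly the same mean in both groups. Without central axon library 4 the number that rose was 6. Of 71 axon guidance genes, 64 tested, 14 rose and 1 fell, 22 rose without soma library 4 and 5 fell without central axon library 1. Efnb3, an ephrin ligand, rose from 1.38 ± 1.05 in somas to 79.3 ± 26.3 in axons (log2 fold change 5.85 with SE 0.71, edgeR adjusted p 0.00035). Plxnd1, a semaphorin receptor, fell from 96.1 ± 11.2 to 22.5 ± 16.5 (log2 fold change -2.09 with SE 0.44, edgeR adjusted p 0.00923). Central axon controls held Hoxc13 at 14.7 ± 10.6, Hoxb6 at 160 ± 76.8, Efnb3 at 97.4 ± 84.2 and Plxnd1 at 2.76 ± 3.26. Mean summed levels of Hox genes were 1022 in axon, 604 in soma and 1375 in control libraries. Those of axon guidance genes were 1949, 1607 and 2035.

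Several of the genes with the smallest adjusted p belong to no list. Hap1, a partner of huntingtin that is abundant in the hypothalamus and spinal cord, was at 268, 646, 473 and 720.0 normalised CPM in axon and 23.97, 14.5, 8.73 and 17.1 in soma libraries (log2 fold change 5.04 with SE 0.45, edgeR adjusted p 4.88e-05). Sall3, a zinc-finger transcription factor, was at 44.3, 124, 37.6 and 101 in axon libraries and at most 0.126 in soma libraries, at least 209.6-fold higher (edgeR adjusted p 1.64e-05). Central axon controls held Hap1 at 1056, 515, 1095 and 709, and Sall3 at 224, 222, 63.5 and 118. Amn, a membrane protein best known from kidney and intestine, was at 68.2 ± 25.4 in axon, 0.196 ± 0.244 in soma and 63.8 ± 31.7 in control libraries (log2 fold change 8.29 with SE 0.67, edgeR adjusted p 3.02e-05). Meg3, a long noncoding RNA of neuronal nuclei, was the only higher gene among the 10 with the highest normalised CPM in axons, at 2167, 3333, 2539.8 and 5372 in axon and 163, 401, 56.6 and 1164 in soma libraries (log2 fold change 2.91 with SE 0.74, edgeR adjusted p 0.0217). All 4 axon libraries were above all 4 soma libraries, but the call was lost in 4 of the 8 fits with 1 library left out (adjusted p up to 0.0671). In the controls Meg3 was at 1827, 3456, 1399 and 3084.

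The axon tissue of mice without Cre also gave RNA of the higher genes. Of the 1250, 1232 (98.6%) had at least 10 counts in at least 1 of the 4 central axon controls, near the 95.2% of all tested genes. The higher genes held 4.98%, 10.1%, 8.87% and 13.3% of all counts in the 4 Cre axon libraries, 1.43%, 1.71%, 1.16% and 1.92% in the somas, and 12.2%, 13.4%, 12.7% and 13.4% in the controls. The 4 controls were nearly level, and central axon library 1 held the least of the 8 libraries of that tissue. The mean of the controls was at or above the mean of the Cre axon libraries in 733 higher genes (58.6%), against 42.6% of all tested genes. The median log2 ratio of Cre to control was -0.21 in the higher genes and 0.12 in all tested genes. The 4 axon libraries take part in both comparisons, so these figures are a description and not an independent test.

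**Figure D4:**
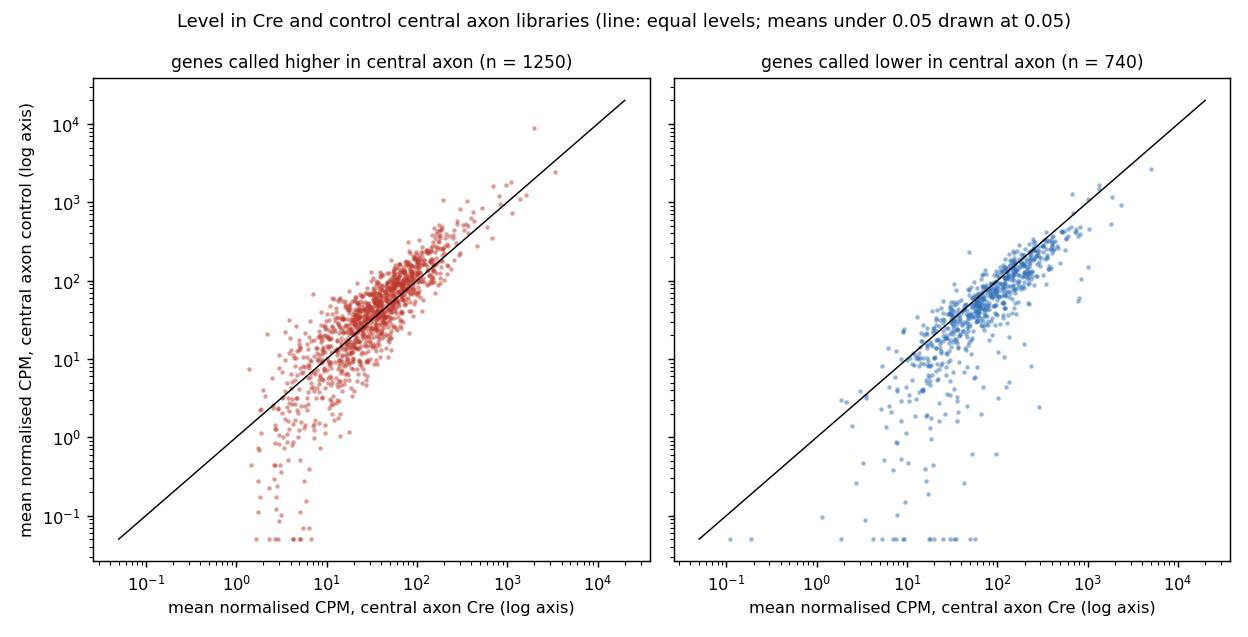
Mean normalised CPM in central axon Cre libraries (x axis) and central axon control libraries (y axis), log axes, for the 1250 genes called higher and the 740 called lower in axon than soma; the line marks equal levels. Higher genes lie on both sides of the line, with 58.6% at or above it, and lower genes lie mostly under it, with 22.4% at or above it.

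Few of the higher genes stood above the controls. All 4 Cre axon libraries lay above all 4 controls in 46 of the 1250 (3.68%), against 1072 of 14480 genes tested (7.40%), and all 4 controls above all Cre axon libraries in 52 (4.16%), against 191 (1.32%). Without control 1 the first count was 148 (11.8%, against 16.5% of all), without control 2 it was 76 (6.08%, against 10.3%) and without control 4 it was 76 (6.08%, against 11.95%). Among the 181 higher genes with at most 3 counts in every soma library, 20 (11.05%) lay above all controls, against 7.40% of all tested genes. Lcat and Catip, 2 of the 46 higher genes above all controls, were low, and only Lcat is among the 181. Lcat, a cholesterol-esterifying enzyme, was at 2.57, 5.07, 2.45 and 15.4 normalised CPM in axon, 0 in each soma and 0.275, 0, 0 and 0 in control libraries. Catip was at 1.93, 1.36, 6.50 and 10.7 in axon, 0.378, 0.429, 0 and 0 in soma and 0 in each control library. The call of Catip against somas (edgeR adjusted p 0.0357) was lost in 7 of the 8 fits with 1 library left out (up to 0.131).

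Tested directly, Cre axons differed from control axons in 2 of 14189 genes (0.0141%; 684 at an unadjusted p under 0.05, and 216 by DESeq2 and 137 by limma voom after adjustment), and neither was a higher gene. They were Sncg and Tppp3, both abundant in sensory neurons. A further fit asked whether the difference of axon and soma was larger in Cre than in control mice. It called none of 15355 genes in edgeR (0%), with a smallest adjusted p of 0.0729 and 3133 genes at an unadjusted p under 0.05. DESeq2 called 567, limma voom 358, and edgeR 1111 without soma control 3. The soma controls in this fit hardly resembled each other: they held 4934 to 7889 genes at 10 or more counts, and over genes with at least 10 counts in a pair together, Spearman correlations across genes were 0.0392 to 0.149 in their 6 pairs, against 0.854 to 0.966 in Cre somas and 0.364 to 0.769 in central axon controls. The 0 calls therefore do not show that the difference was the same in Cre and control mice. Among the named genes, Lamp5 had a log2 ratio of Cre to control axons of -1.08 (edgeR adjusted p 0.671), Sst -0.83 (0.995), Npy -1.10 (0.991), Nova1 -1.15 (0.447) and S100b -0.20 (1). None of these 5 ratios passed the test. For the higher genes, RNA of the spinal cord tissue and RNA of the tagged axons cannot be told apart by axon against soma, because only the axon tissue holds cord.

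The lower genes began with those of the sensory neurons themselves. Of 21 nociceptor and DRG neuron markers, 20 tested, none rose and 7 fell, with a median log2 fold change of -1.37 and all 20 values negative. The list's summed level was 18251, 7928, 8687 and 4069.6 normalised CPM in the 4 axon libraries, 27658, 29758, 35761 and 12789.9 in somas and 1154, 937, 1683 and 1562 in controls. Every Cre axon library was above every control, and central axon library 1 was above soma library 4. The same 20 genes had a median log2 ratio of Cre to control axons of 3.89. The number that fell depended on single libraries: it was 15 without central axon library 1, which was the highest in this list, 1 without central axon library 2, soma library 1 or soma library 2, 2 without soma library 3, and 0 without central axon library 3 or 4. With library totals alone it was 2, by DESeq2 12 and by limma voom 11.

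Prph, the intermediate filament peripherin of sensory neurons, was at 3666, 1589.7, 1409 and 659 normalised CPM in axon and 9208, 6387, 7140.2 and 4350.1 in soma libraries (log2 fold change -1.88 with SE 0.52, edgeR adjusted p 0.0308). Every soma library was above every axon library, and the call was lost in 6 of the 8 fits with 1 library left out (adjusted p up to 0.101). Mrgpra3, an itch receptor, was at 12.1, 13.3, 5.05 and 5.99 in axon and 25.7, 86.8, 14.4 and 49.7 in soma libraries (log2 fold change -2.27 with SE 0.56, edgeR adjusted p 0.0191) and at 0 in every control. The heat-gated channel Trpv1 and the sodium channel Scn11a, both named after their values were seen, were likewise at 0 in every control. Trpv1 was at 27.7, 18.3, 12.2 and 11.3 in axon libraries and 39.2, 67.1, 32.6 and 43.8 in soma libraries, and Scn11a at 56.8 ± 52.05 and 196 ± 46.1 (SD, n = 4). The calls of Mrgpra3, Trpv1 and Scn11a were lost in 3, 5 and 7 of the 8 fits with 1 library left out (adjusted p up to 0.0781, 0.119 and 0.107). Sncg, gamma-synuclein, had 4786, 2831, 3306 and 1419.6 in axon and 6099, 9185, 16064 and 1249 in soma libraries (log2 fold change -1.40, edgeR adjusted p 0.165), against 161, 135, 185 and 150.2 in controls (log2 ratio 4.28, edgeR adjusted p 0.00405). Tppp3, a tubulin-binding protein, had means of 1818, 4972 and 151. Axon and soma of these 2 genes did not pass the test, while Cre and control axons did (for Tppp3 a log2 ratio of 3.58, edgeR adjusted p 0.0264). Neither side of this was steady. Against controls, the edgeR call of Sncg was lost without control 1 or 4 (adjusted p 0.0618 and 0.0662) and with all groups in 1 fit (0.0549), and that of Tppp3 in 7 of the 8 fits with 1 library left out (up to 0.0965). Against somas, Tppp3 passed the edgeR test without central axon library 1 (adjusted p 0.0196) or soma library 4 (0.0193), and Sncg without soma library 4 (0.0317).

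Mitochondrial energy genes of the nucleus gave the largest number of lower calls among the lists. Of 82 nuclear genes of the respiratory chain and ATP synthase, 81 tested, none rose and 42 fell, with a median log2 fold change of -1.22 that stayed negative (-0.79) with library totals alone. Summed over the list, levels were 19263.5 to 34289 normalised CPM in axon, 47005 to 71830 in soma and 16934 to 25356.5 in control libraries. The axon and control ranges overlapped, and the list's median log2 ratio of Cre to control axons was 0.30, against 0.12 in all tested genes. Split by complex, a split chosen after seeing the data, 22 of 37 members of complex I fell, 0 of 4 of complex II, 5 of 9 of complex III, 8 of 15 of complex IV and 7 of 16 of ATP synthase. Ndufb3 (ENSMUSG00000026032, chromosome 1, 58586384 to 58595964), a subunit of complex I, was at 234, 148, 114 and 100.1 normalised CPM in axon and 538, 476, 771 and 1013 in soma libraries (log2 fold change -2.23 with SE 0.38, edgeR adjusted p 0.00329). Axon and soma did not overlap, and the controls, at 85.6, 39.9, 97.9 and 122, lay near the axon libraries. Ndufa5 and Ndufs5, of the same complex, had log2 fold changes of -2.17 (edgeR adjusted p 0.00554) and -1.75 (0.00675). Timm10, a chaperone of mitochondrial protein import, was at 84.8, 49.9, 46.6 and 47.5 in axon and 211, 172, 227 and 242 in soma libraries (log2 fold change -1.89 with SE 0.30, edgeR adjusted p 0.00236), and Fdx1, a mitochondrial ferredoxin, at 24.7 ± 7.07 and 87.9 ± 23.8 (log2 fold change -1.83 with SE 0.33, edgeR adjusted p 0.00446).

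Transcripts made inside mitochondria did not follow the nuclear ones. Of 13 mitochondria-encoded protein genes 7 were tested, all 7 with positive log2 values (median 1.41), and 1, mt-Cytb, rose (log2 fold change 1.96 with SE 0.59, edgeR adjusted p 0.0432). The call was lost in 6 of the 8 fits with 1 library left out (edgeR adjusted p up to 0.137). Central axon library 3 held 66.3 normalised CPM of mt-Cytb, against 339 or more in the other 3. The controls held 807, 369, 360 and 241. Mean summed levels of the list were 1567 in axon, 617 in soma and 1878 in control libraries, and its median log2 ratio of Cre to control axons was -0.21. The untested members, mt-Atp6, mt-Atp8, mt-Co2, mt-Co3, mt-Nd3 and mt-Nd4l, did not pass the count filter. Mitochondrial ribosomal proteins went with the nuclear group: of 78, 77 tested, 23 fell and 1, Mrps2, rose. Mrps12, of the small mitochondrial subunit, was at 176, 103, 121 and 110.0 in axon and 414, 359, 571 and 355 in soma libraries (log2 fold change -1.73 with SE 0.31, edgeR adjusted p 0.00441). The rise of Mrps2 (log2 fold change 1.25, edgeR adjusted p 0.0385) was lost in all 8 fits with 1 library left out (adjusted p up to 0.107).

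Cytosolic ribosomal protein genes were lower as well. Of 86, 83 tested, 30 fell and none rose, with a median log2 fold change of -1.04 (-0.63 with library totals alone). By subunit, split after seeing the data, 19 of 50 tested large subunit genes fell and 11 of 33 small subunit genes. Rpl34 (ENSMUSG00000062006, chromosome 3, 130726831 to 130730398) was at 150.2, 70.7, 80.04 and 54.2 normalised CPM in axon and 296, 261, 675 and 322 in soma libraries (log2 fold change -2.13 with SE 0.41, edgeR adjusted p 0.00647). The controls were at 28.9, 10.1, 95.9 and 54.3. Rplp2, a protein of the ribosomal stalk, was at 91.5 ± 37.8 in axon, 421 ± 233 in soma and 94.5 ± 41.8 in control libraries (log2 fold change -2.20 with SE 0.44, edgeR adjusted p 0.00738). Summed over the list, levels were 7386, 5455, 3709 and 3550.4 in axon, 9213, 8793, 17297 and 12522 in soma and 3555, 3733, 7587 and 5316 in control libraries. The axon and control means were nearly equal, at 5025 and 5048. Many ribosomal protein genes have near-identical processed copies, and how shared reads were counted is not given in the sources used here, so single genes of this list are uncertain.

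Messages of ribosomal proteins are known for a pyrimidine run at their start, through which their translation is regulated. The starts of 4 lower members are printed to show it, 20 bases before and 10 from the RefSeq start (GRCm38.p6), with a match to the word CTTTC, the word CTTTT or the word CTCTT on the transcribed strand in capitals. The words were searched within 10 bases of either side of the start, and were chosen after the starts of a few genes had been read.
Rplp2, chr7:141447631-141447660, + strand: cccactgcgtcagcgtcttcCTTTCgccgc
Rpl38, chr11:114668560-114668589, + strand: ccggaagcggaagcctcgttCTTTCcccgt
Rps21, chr2:180257359-180257388, + strand: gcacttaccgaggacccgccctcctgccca
Rpl34, chr3:130730389-130730418, - strand: cgcgccgccttccctgacgtacttcctgtc
Rplp2 and Rpl38 match a word and Rps21 and Rpl34 match none. The words do not cover every pyrimidine run: the printed starts of Rps21 and Rpl34 also hold runs of C and T, which these words miss. A match was present at 20 of the 65 ribosomal protein genes with a start in the table (30.8%), at 9 of the 23 lower ones (39.1%) and at 6.30% of all 27025 starts. Among genes with a start it was present at 5.28% of all tested genes and 7.53% of all lower genes. Because the words were chosen after starts had been read, and only 65 of the 86 list members had a start, a comparison of matching with non-matching genes is void.

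Other housekeeping groups of the protein life cycle leaned the same way. Of 39 proteasome genes, 37 tested, 10 fell and none rose (median log2 fold change -0.84), with Psmd13 at 182 ± 46.3 normalised CPM in axon and 538 ± 144 in soma libraries (log2 fold change -1.56 with SE 0.32, edgeR adjusted p 0.00909). Of 21 chaperonin and heat shock genes, 20 tested, 4 fell, among them Hspe1, a mitochondrial chaperonin (log2 fold change -1.64 with SE 0.35, edgeR adjusted p 0.0107). Of 68 translation factors, 65 tested, 7 fell and none rose, with a median of -0.37 that turned to 0.09 with library totals alone. Eif2s2, a subunit of the initiation factor that delivers the first transfer RNA, was at 106 ± 36.6 in axon and 355 ± 193 in soma libraries (log2 fold change -1.74 with SE 0.43, edgeR adjusted p 0.0185), a call lost without central axon library 2 (adjusted p 0.0642) or 4 (0.0547). The counts moved with single libraries: without central axon libraries 2, 3 or 4, the numbers that fell were 15, 16 and 16 for the respiratory chain, 11, 10 and 10 for cytosolic and 6, 6 and 7 for mitochondrial ribosomal proteins, and 2 each for the proteasome. Without soma library 3 they were 22, 12, 8 and 2. Without soma library 1, 27 respiratory chain, 14 mitochondrial ribosomal and 2 proteasome genes fell, and without soma library 2, 5 proteasome genes. Without soma library 4, 40 mitochondrial ribosomal, 21 proteasome and 11 translation factor genes fell. The other fits with 1 library left out gave 0 to 4 translation factors for central axon libraries 2 to 4 and soma libraries 1 to 3, and 1 or 2 chaperonin genes for central axon libraries 2 to 4 and soma libraries 1 and 3. With library totals alone, 26 respiratory chain, 13 cytosolic and 10 mitochondrial ribosomal, 4 proteasome, 1 translation factor and 1 chaperonin gene fell, and by DESeq2 16 proteasome and 7 chaperonin genes. None of the respiratory chain, ribosomal and proteasome lists had a member called lower when all 4 groups of the batch shared 1 fit. In that fit no Hox, axon guidance or glycine and GABA-A receptor gene was called higher, and 1 ionotropic glutamate receptor gene was. The median log2 ratio of Cre to control axons was 0.36 for mitochondrial ribosomal proteins and 0.42 for the proteasome. For translation factors it was 0.005, and for chaperonin and heat shock genes -0.09. In these lists too, RNA of the tagged axons and of the cord tissue cannot be told apart by axon against soma.

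**Figure D5:**
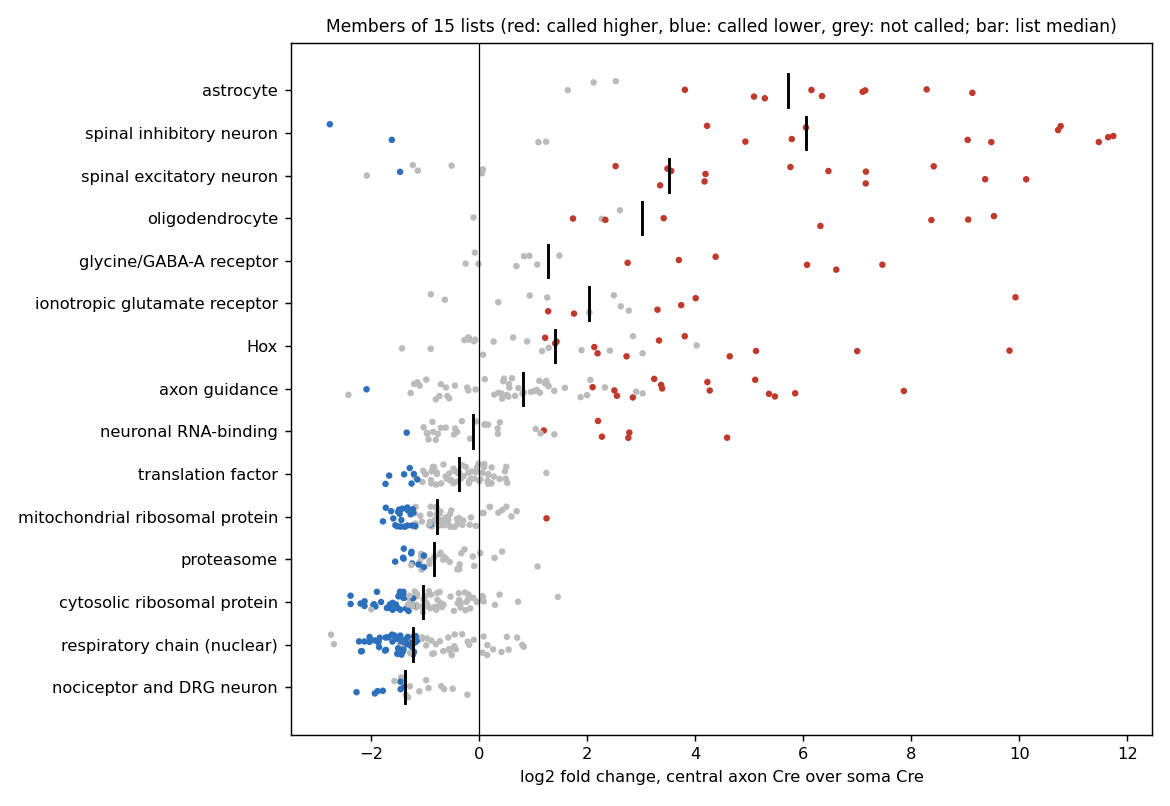
Log2 fold change of central axon over soma Cre libraries (x axis) for each tested member of 15 gene lists (points; red called higher, blue called lower, grey not called), with list medians as bars. Astrocyte and spinal neuron members reach far to the right, whereas the ribosomal, respiratory and nociceptor medians lie at -0.79 to -1.37.

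The remaining lower genes with the smallest adjusted p were calcium-binding, signalling and membrane genes. S100a13 was at 79.9, 93.6, 44.4 and 35.7 normalised CPM in axon and 179.9, 251, 507 and 789.8 in soma libraries (log2 fold change -2.76 with SE 0.49, edgeR adjusted p 0.00437), and S100a6 at 1754, 811, 337 and 310.2 and 3822, 3467, 5391 and 9018 (log2 fold change -2.75 with SE 0.60, edgeR adjusted p 0.011). Both are small calcium-binding proteins, and S100a6 was at 16.99, 80.8, 65.4 and 78.7 in controls. Fxyd2, a regulator of the sodium-potassium pump in sensory neurons, was at 96.9, 64.1, 50.1 and 50.1 in axon, 214, 238, 395 and 186 in soma and 6.54, 0.100, 0 and 1.31 in control libraries (log2 fold change -1.98 with SE 0.35, edgeR adjusted p 0.00388). Every Cre axon library was thus between the somas above and the controls below. Capn1, a calcium-dependent protease, had means of 23.6, 84.2 and 8.26 (log2 fold change -1.83 with SE 0.33, edgeR adjusted p 0.00432), and Prune2 of 45.9, 209 and 30.1 (log2 fold change -2.18 with SE 0.37, edgeR adjusted p 0.00311). Nol3, an inhibitor of cell death, fell as well (log2 fold change -2.49 with SE 0.39, edgeR adjusted p 0.00186), but a gene on the other strand overlaps 48.2% of its exon length, and the strand of counting is not given in the sources used here. Tmsb4x, the actin-binding thymosin beta 4, had the highest normalised CPM in axons, a scale with no length correction, at 5063 ± 2493 against 16852 ± 6002 in somas (log2 fold change -1.73 with SE 0.50, edgeR adjusted p 0.0357), a call lost in 6 of the 8 fits with 1 library left out (adjusted p up to 0.112).

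Against the controls, the lower genes looked different from the higher ones. All 4 Cre axon libraries lay above all 4 controls in 127 of the 740 lower genes (17.2%), against 7.40% of all tested genes. The control mean reached the axon mean in 166 (22.4%), against 42.6% of all tested genes. The median log2 ratio of Cre to control axons was 0.49, against 0.12 in all tested genes. Here too the 4 axon libraries take part in both comparisons, so these figures are a description and not an independent test. The lower genes held 16.1%, 11.7%, 9.96% and 8.80% of counts in the 4 axon libraries, 22.8%, 21.7%, 29.6% and 29.3% in the somas, and 6.73%, 6.91%, 10.5% and 10.1% in the controls. Central axon library 1 was the highest axon library here and the lowest for the higher genes. Exon length also differed between the classes, with medians of 5195 bases in the higher, 2473.5 in the lower and 4355.5 in all tested genes, and its part in the result was not tested.

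Lists tied to transport and transmission showed few calls. Of 58 kinesin and dynein genes, 52 tested, 1 rose and 7 fell. Kif21b, a kinesin, rose from 7.56 ± 4.31 to 79.6 ± 37.8 normalised CPM (log2 fold change 3.40 with SE 0.51, edgeR adjusted p 0.00139), while its close relative Kif21a was at 695 ± 438 in somas and 223 ± 41.9 in axons (log2 fold change -1.63 with SE 0.41, edgeR adjusted p 0.0209), a call lost without central axon libraries 2, 3 or 4 (adjusted p 0.075, 0.0556 and 0.0591). Dync1i2, an intermediate chain of dynein, the motor that moves toward the cell body, fell from 1034 ± 707 to 251 ± 66.4 (log2 fold change -2.04 with SE 0.45, edgeR adjusted p 0.012). Central axon controls had means of 164 for Kif21b, 93.4 for Kif21a and 250.3 for Dync1i2. The control mean was thus above the Cre axon mean for Kif21b and nearly equal to it for Dync1i2. For Kif21a every Cre axon library lay above every control. Kif21b, Kif21a and Dync1i2 did not pass the edgeR test of Cre against control axons (adjusted p 0.933, 0.42 and 0.9997). Of 32 tested synaptic vesicle and SNARE genes 1 rose and 2 fell, and of 17 glycolysis genes 3 rose (Ldhb, Pfkl and Aldoc) and none fell. None of 11 tested immediate early and injury genes was called, and 1 each of 20 hnRNP genes rose and fell. These shares lie near or under the 8.63% and 5.11% of all genes, other than the 3 of 17 higher for glycolysis and the 7 of 52 lower for transport motors. Neither of these 2 counts was steady. The glycolysis count was 0 without central axon library 2, 3 or 4 or soma library 1 or 2, and 1 without soma library 3 or 4. With library totals alone it was 5. The motor count was 2 without central axon library 2, 3 or 4 and 3 without soma library 3 or with library totals alone. The lower synaptic count was 6 without central axon library 1 and 0 without library 2, 3 or 4.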

How the data were processed

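The authors deposited raw read counts per gene for 16 batch 1 libraries. STAR 2.7.2b and mm10 are named per the submitters' processing notes; the counting program, strand, shared reads and duplicates are not given in the sources used here. All 55536 identifiers matched GENCODE mouse release 21 (GRCm38), the source of symbols and lengths. Of the soma control columns 2 shared 1 header, and these are called a and b.

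Counts were fitted in R 4.3.3 with edgeR 4.0.16 (filterByExpr with minimum count 10 and total 15, TMM, glmQLFit and glmQLFTest, Benjamini-Hochberg adjusted p under 0.05), without a replicate block. The 3 fits were axon against soma in 8 Cre libraries, axon Cre against axon control, and the difference of differences over 16 libraries. DESeq2 1.42.0, limma 3.58.1 (voom), other scalings and filters, a block and leaving out each library were alternatives. The code was tested on simulated counts. The SE is the log2 fold change over the square root of F. Controls were put on the axon libraries' scale through the second fit's TMM factors. Floors are 3 counts per library, counting error only.

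The 32 gene lists, the members and the rules were chosen with earlier results of these data known. Named genes were Scn10a, Rpl10a, Sncg, Tppp3, Lamp5, Sst, Nova1, S100b, the 10 protein-coding genes per direction with the smallest adjusted p (absolute log2 fold change of at least 1, no overlap), up to 3 per list and direction, the 10 with the highest CPM in each group, and the 10 higher genes most above the controls. Start sequences are RefSeq's. Batch 2 was not used.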

Additional observations from a re-analysis of the deposited data

Results flagged for a closer look

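In groups of 4 libraries, the highest or lowest library was set apart when its gap to the next, divided by the group's range, passed Dixon's 95% critical value for 4 samples. This held in 37 of 369 groups examined (list sums and named genes in 3 groups), and chance alone sets apart about 1 in 20. All values are normalised CPM.

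Among the 4 central axon Cre libraries, the highest value stood apart for the summed level of skeletal muscle genes (131.9, next 27.9), Hox genes (1299.8, next 953), Sst (201), Pvalb (10.9), Gal (107.6), Dync1i2 (350.4) and Timm10 (84.8). The lowest stood apart for the mitochondria-encoded genes (274, next 1831) and the ionotropic glutamate receptor genes (915), Celf4 (277) and Glra1 (8.17). The last 3 of the first set are genes called lower in axons, and each came from central axon library 1.

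Among the 4 soma libraries, Malat1, a nuclear long noncoding RNA, was at 12871 in soma library 4 and at 301 to 885 in the other 3. Without that library its log2 fold change of axon over soma passed the edgeR test (adjusted p 0.00547), and with all libraries it did not (0.98). The highest soma library also stood apart for the summed excitatory dorsal horn (719.8) and endothelial genes (47.0), and for Hoxb6 (20.3), Rpl34 (675) and Prune2 (351). For genes near 0 in somas a single library with a few counts was enough, as in Lamp5 (0.252), Slc18a3 (0.252), Sall3 (0.126), Olig1 (1.26), Olig2 (0.287), Sall1 (0.126), Glra2 (0.8598) and Gabra4 (0.215).

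Among the 4 central axon controls, the highest library stood apart for the hnRNP genes in sum (3959.5), Scn10a (25.5), Slc18a3 (54.4), Chat (6.05), Pvalb (16.5), Scn7a (20.5), Mrps12 (312), Calcb (66.3), Gabra3 (46.2), Ldhb (1080.1) and Lcat (0.275), and the lowest for Nova2 (19.5).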

How the results depend on the processing

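The axon-soma count of 1990 ran from 2063 to 2439 under RLE scaling, library totals alone, no filter, the stricter filter, limma voom (2361) and the replicate block (2226, 1759 of them shared), was 3145 by DESeq2, 822 to 2717 with 1 library left out and 15, all higher, with all 4 groups in 1 fit. The share of higher calls was 62.8%, 88.0% with library totals alone and 49.4% without central axon library 1. Pairing was examined on each gene's deviations from its group mean, not on whole profiles. These deviations correlated at -0.00494 to 0.196 in same-numbered axon and soma libraries (mean 0.116). The mean of other pairs was -0.0383, but deviations cancel within each group, which nearly fixes that value, so it is no separate comparison. Of 4 axon libraries 2 were best with their own number, and of 4 soma libraries 1. With so few pairs this check does not settle pairing. The labels do not tie replicate numbers to animals, so same-numbered libraries were not taken as paired. With the replicate block 14 nociceptor genes (7 without it) and 4 synaptic genes (2) were lower, and no ependymal gene (2) and 4 mitochondria-encoded genes (1) were higher. Of Cre against control axons, the 2 calls became 34 with no filter, 216 by DESeq2, 137 by voom, 1 with the replicate block, 1 with all groups in 1 fit, and 0 to 5 with 1 library left out. The 0 calls of the difference of differences became 1 (RLE), 320 (no filter), 1 (stricter filter), 567 (DESeq2), 358 (voom), 1 (replicate block), and 0 to 1111 with 1 library left out. The cause of these moves was not tested.

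Medians that changed sign lay between -0.37 and 0.44 in the test as reported. With library totals alone they became 0.11 (fibroblast), 0.0223 (muscle), 0.33 (neuronal RNA-binding), 0.0882 (translation factor), 0.15 (hnRNP), 0.21 (kinesin and dynein) and 0.27 (synaptic). With all groups in 1 fit they became 0.00792 (fibroblast), 0.21 (muscle), 0.30 (neuronal RNA-binding), 0.0380 (hnRNP), 0.17 (kinesin and dynein) and 0.17 (synaptic). Muscle was 0.0376 with no filter. With the stricter filter Schwann and satellite glia were at -0.14 and immediate early genes at -0.71. By voom fibroblast was at 0.18, neuronal RNA-binding at 0.0374, protocadherin at -0.0209 and immediate early at -0.0238. With the replicate block neuronal RNA-binding was at 0.0239 and immediate early at -0.17. With 1 library left out, medians ran from -2.42 to 0.24 (muscle), -0.0484 to 0.18 (SR), -0.48 to 0.39 (immediate early), -0.15 to 1.15 (microglia), -0.23 to 0.0830 (neuronal RNA-binding) and -0.000451 to 0.40 (glycolysis). Rpl10a ran from -0.25 to 0.21 and Malat1 from -0.34 to 2.57. Hoxa7 and Hoxc9 became 0.39 and 0.28 with library totals alone and 0.27 and 0.16 with all groups in 1 fit, and with 1 library left out Hoxa7 ran from -0.28 to 0.0755 and Hoxc9 from -0.39 to 0.00192. Of the named genes' values under the alternatives, 1162 kept direction and side of the threshold, 200 lost the call, 13 gained it and 15 changed sign.

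Control libraries held 7251 to 15153 detected genes, which limits what a control level of 0 can show.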
